A study of Mus musculus with 9 samples.

Results

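The regions described here are 26267 CpG-sparse stretches of 100 bp on the mouse autosomes that lie far from CpG-dense sequence. They were taken from the authors' table of 100 bp tiles (build mm9) as the autosomal tiles with a CpG density under 2 and with no tile of density 8 or more starting within 10000 bp on either side. CpG density is the authors' value and tells how many CpGs lie within 50 bp of each CpG of a tile, averaged over the tile. Of 814512 tiles in the table, 128703 met these conditions. Those with at least 10 calls in each of 8 samples, 26267 or 20.4%, were measured and made up 9.39% of the 279699 tiles tested. Dense tiles stand in for CpG islands here, and an island outside the deposited table would be missed.

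In mammalian somatic cells most CpGs away from CpG islands are methylated, and the scattered, isolated CpGs between genes and inside introns form the bulk of this methylated background. Methylated cytosine mutates readily to thymine, which has left such sequence poor in CpGs, whereas islands, usually unmethylated at promoters, kept theirs. A somatic nucleus placed in an egg meets the factors that remodel methylation after fertilization, where the methyl groups of the paternal genome are oxidized and much of the rest is diluted as DNA replicates.

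DNA methylation was read by reduced representation bisulfite sequencing, which sequences size-selected MspI fragments after a treatment that converts unmethylated cytosine. A call is 1 read of 1 CpG, and the level of a tile is the percentage of its calls that were methylated. The fibroblasts (label TT, 4 samples) were grown from tail tips of adult male mice in serum-supplemented medium and passaged to confluence. The nuclear transfer (NT) embryos (label NTZy14, 4 samples) received such a fibroblast nucleus in an enucleated C57/B6 oocyte, were activated in strontium with cytochalasin B, and had their zona and the first polar body taken away. Each stage had 2 samples of strain label BDF1-CAST, numbered 1 and 2, and 2 of label X1, numbered 3 and 4. The sources used here do not give the meaning of X1 or of the digits in NTZy14, the number of embryos in a sample, or whether each sample is a separate animal or culture. The p-values therefore rest on a spread between samples that may be technical only. Libraries held 25239364 to 41466097 calls. A CpG-sparse tile held a median of 26 to 76 calls in the fibroblast samples and of 27 to 38 in the NT embryo samples, against 65 to 143 and 41 to 51 in the other tested tiles.

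The measured tiles had the composition that the rule describes. Each had a deposited density of exactly 1, so that its CpGs have no neighbour within 50 bp in the authors' count. In 24016 tiles 1 CpG was called in every sample, in 2109 tiles 2 and in 141 tiles 3. For 1616 tiles, however, the call lists held another covered CpG within 50 bp that the deposited density does not count. The tiles lay on all 19 autosomes, with 582 to 2149 per chromosome. Their median distance to the nearest dense tile was 66000 bp, with quartiles at 31100 and 134400 bp. Genes, introns and repeats are not named, because no annotation of build mm9 was used here. At the distance threshold, 756 tiles at 10001 to 12000 bp averaged 69.2% in fibroblasts and 57.3% in NT embryos. Just outside it, 874 tiles of the same density at 8000 to 10000 bp averaged 67.7 and 55.8%.

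The CpG-sparse tiles were highly methylated in fibroblasts and partly lost that methylation in NT embryos. The mean over the tiles was 74.1, 71.8, 77.4 and 76.1% in fibroblast samples 1 to 4, and 61.8, 61.8, 70.3 and 67.6% in NT embryo samples 1 to 4. The stages did not overlap, although X1 embryo sample 3 came close to BDF1-CAST fibroblast sample 2. The mean fell from 74.9% ± 2.47 to 65.4% ± 4.31 (SD, n = 4 per stage), a change of -9.49 points (two-sided exact permutation test over 70 assignments, p = 0.0286, the smallest this design gives, and 0.0476 adjusted over the 10 tests of this kind). The tile in the middle of the distribution moved as well, with medians of 79.6 to 84.2% in fibroblast samples and 68.8 to 77.4% in NT embryo samples. Leaving out any 1 of the 4 fibroblast samples gave -10.5 to -8.62 points, with an exact permutation p of 0.0571 each time. The change was larger in shallow tiles: among tiles at 60% or more in the fibroblast mean, it was -14.7 points where the least covered sample held 10 to under 15 calls and -9.53 points where it held 30 or more. These tiles were chosen by the same fibroblast samples that the change is measured from, so chance deviations are not kept out here. The part of depth in this was not tested.

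The loss was a broad shift into intermediate levels, mostly those at 60 to 80%, with a small gain of unmethylated tiles, not a switch of a few tiles. Tiles at 80% or more made up 58.4, 49.7, 65.0 and 60.5% in the fibroblast samples and 22.5, 20.02, 42.4 and 39.0% in the NT embryo samples. The lowest fibroblast share lay above the highest embryo share, and the mean share fell from 58.4% ± 6.42 to 31.0% ± 11.3 (n = 4 per stage, exact permutation p = 0.0286). Tiles at 20 to 80% rose from 37.0% ± 5.28 to 60.1% ± 10.3, and the share under 20% went from 4.59% ± 1.16 up to 8.97% ± 1.57 (exact permutation p = 0.0286 for each, also when adjusted over the 3 shares). Without the tiles of 150 bp spacing described below, tiles at 20 to 80% rose by 12.5 points with an exact permutation p of 0.0571, and with each tile thinned to 10 calls by 14.99 points. The rise of tiles under 20% was 6.61 points at a minimum of 5 calls, 2.26 points at 20 calls, and 3.06 points with an exact permutation p of 0.0857 when weighted by calls. Without fibroblast sample 3 the exact permutation p of all 3 shares was 0.0571, and that of the tiles under 20% was 0.0571 also without fibroblast sample 1 or 4. The spread between samples also grew: among 23557 tiles at 10 to 90% in fibroblasts, the median SD was 6.70 points between fibroblast samples and 10.7 points between NT embryo samples. Calls per tile were fewer in the embryos, and their part in this wider spread was not tested.

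**Figure D1:**
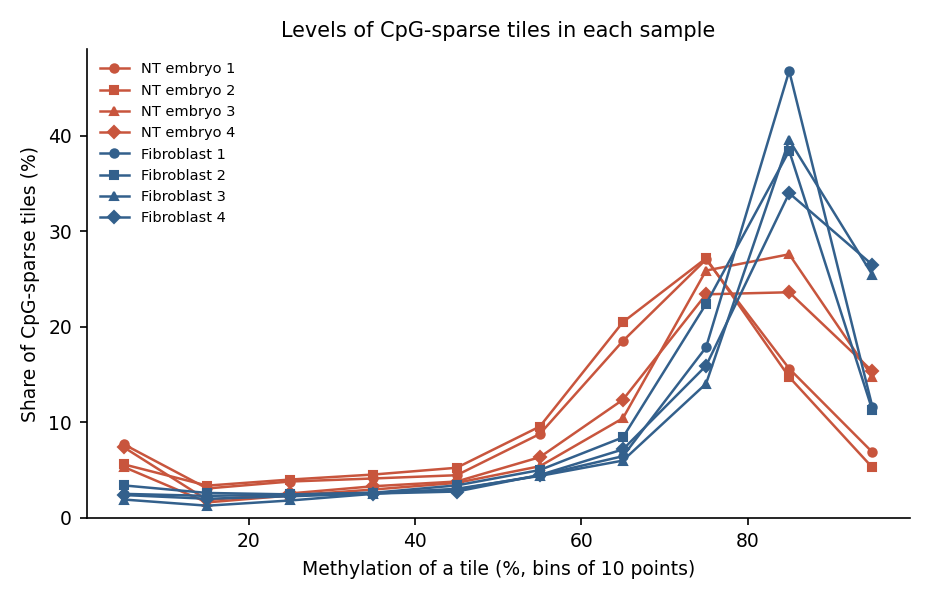
Share of CpG-sparse tiles (y, percent) in bins of 10 points of tile methylation (x, percent) for each of 8 samples, blue for fibroblasts and red for nuclear transfer (NT) embryos. Fibroblast samples peak in the bin from 80 to 90%, while embryo samples 1 and 2 (BDF1-CAST) peak at 70 to 80% and samples 3 and 4 (X1) spread over both bins.

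Over all 8 samples, the stages separated only in the class of tiles that started highest. To keep chance deviations out of the comparison, a tile was placed in a class by the fibroblasts of 1 strain and measured in the samples of the other. Tiles at 80 to 100% made up 16983 of the 26267 as measured in BDF1-CAST and 14593 as measured in X1. They went from 84.2, 82.4, 87.3 and 86.9% in the fibroblast samples to 70.9, 70.4, 78.3 and 76.4% in the NT embryo samples, with no overlap. This change of -11.2 points reached an exact permutation p of 0.0286 (n = 4 per stage), which is 0.143 when adjusted over the 5 classes. Tiles at 60 to 80% changed by -11.3 points, from 74.8% ± 4.80 to 63.6% ± 6.06 (exact permutation p = 0.0571, n = 4), and there the strains differed by so much that X1 embryo sample 3, at 70.4%, lay above BDF1-CAST fibroblast sample 2, at 69.2%. Tiles at 40 to 60% changed by -6.96 points (exact permutation p = 0.257, n = 4), tiles at 20 to 40% by 1.81 points (p = 0.714) and tiles at 0 to 20% by 6.11 points, from 14.0% ± 5.71 to 20.1% ± 9.97 (p = 0.314). In no class under 60% did the stages separate. With both upper classes joined, tiles at 60% or more, called methylated tiles from here on, fell from 82.4% ± 2.51 to 71.2% ± 4.04, a change of -11.2 points (exact permutation p = 0.0286, n = 4 per stage, 0.0476 adjusted over the 10 tests). BDF1-CAST samples changed by -12.6 points and X1 samples by -9.86 points. Leaving out fibroblast sample 3 (-10.5 points) or 4 (-10.5 points) raised the exact permutation p to 0.0571.

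**Figure D2:**
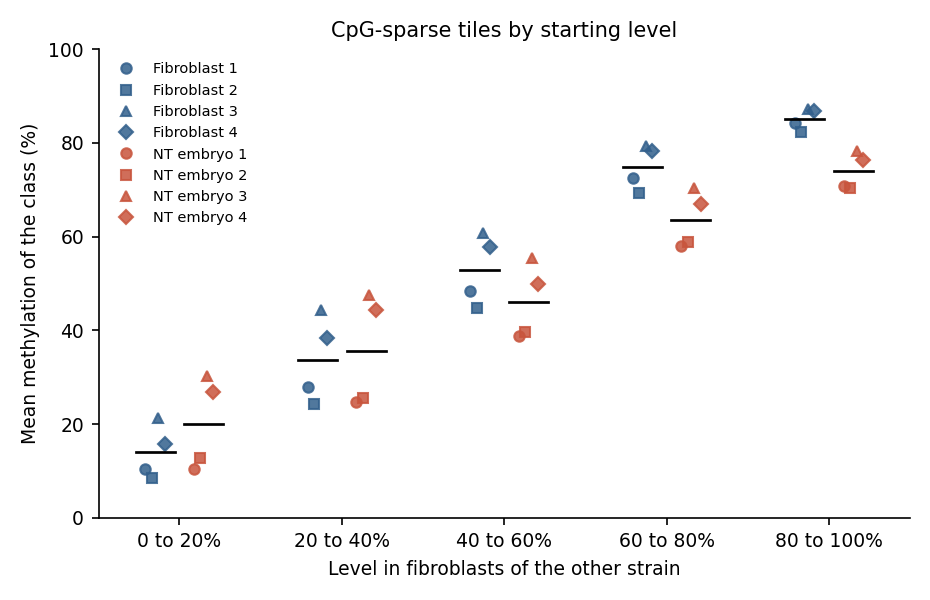
Mean methylation (y, percent) of CpG-sparse tiles in 5 classes by their level in the fibroblasts of the other strain (x), with a point per sample, blue for fibroblasts, red for NT embryos, and a black bar at the mean of 4 samples. Stages are apart in the class at 80 to 100%, with embryo samples at 70.4 to 78.3% and fibroblast samples at 82.4 to 87.3%. Taken over both strains, they overlap in the 3 classes under 60%.

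Among the CpG-sparse tiles themselves, those nearer to dense sequence lost more. Methylated tiles at 10000 to 20000 bp from the nearest dense tile fell from 81.7% ± 2.44 to 67.0% ± 4.29, a change of -14.7 points. The change was -12.3 points at 20000 to 50000 bp, -10.7 points at 50000 to 100000 bp, -10.1 points at 100000 to 200000 bp and -9.22 points at 200000 bp or more, where tiles went from 82.9% ± 2.61 to 73.7% ± 3.74. The fibroblast level of these tiles, which were chosen by it, varied little over the classes. Over the CpG-sparse tiles of any level it did vary with distance, from 70.7% at 10000 to 20000 bp to 78.8% at 200000 bp or more, while the embryo level went from 58.8 to 70.7% and the change from -11.9 to -8.10 points. For the methylated tiles, in NT embryo samples 1 to 4 the nearest class was at 63.1, 63.8, 72.2 and 68.8% and the farthest at 70.7, 70.3, 78.0 and 75.6%.

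The test of this gradient compared methylated tiles at 100000 bp or more with those under 20000 bp within each sample. The far tiles were higher by 1.17, 0.867, 1.02 and 1.12 points in fibroblast samples 1 to 4 and by 6.86, 5.83, 5.19 and 6.31 points in NT embryo samples 1 to 4. The gap widened by 5.00 points between the stages (exact permutation p = 0.0286, n = 4 per stage, 0.0476 adjusted over the 10 tests), namely 5.33 points within BDF1-CAST and 4.68 points within X1. Leaving out any 1 sample gave 4.91 to 6.12 points with an exact permutation p of 0.0286 each time. The median depth was 46 calls at 10000 to 20000 bp and 42 at 200000 bp or more in fibroblasts, and 30 and 31 in embryos. With each tile thinned to 10 calls the gap widened by 5.15 points, and at a minimum of 20 calls per tile by 2.71 points (exact permutation p = 0.0286 for each). The part of depth in the gradient was not tested.

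Tiles of the next higher CpG density followed the same gradient more steeply. Methylated tiles of density 2 to under 4 changed by -17.4 points at 10000 to 20000 bp and by -8.74 points at 200000 bp or more from a dense tile. Their gap between 100000 bp or more and under 20000 bp widened by 7.94 points between the stages, against 5.00 points in the CpG-sparse tiles. The difference of the 2 gradients was -2.94 points (exact permutation p = 0.0286, n = 4 per stage), a comparison chosen after the data had been seen. Weighted by calls it was -4.53 points (exact permutation p = 0.0286). In the classes near dense tiles the CpG-sparse tiles thus kept more methylation, with embryo means of 67.0% against 63.6% at 10000 to 20000 bp, and at 200000 bp or more both stood at 73.7 and 73.4%.

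**Figure D3:**
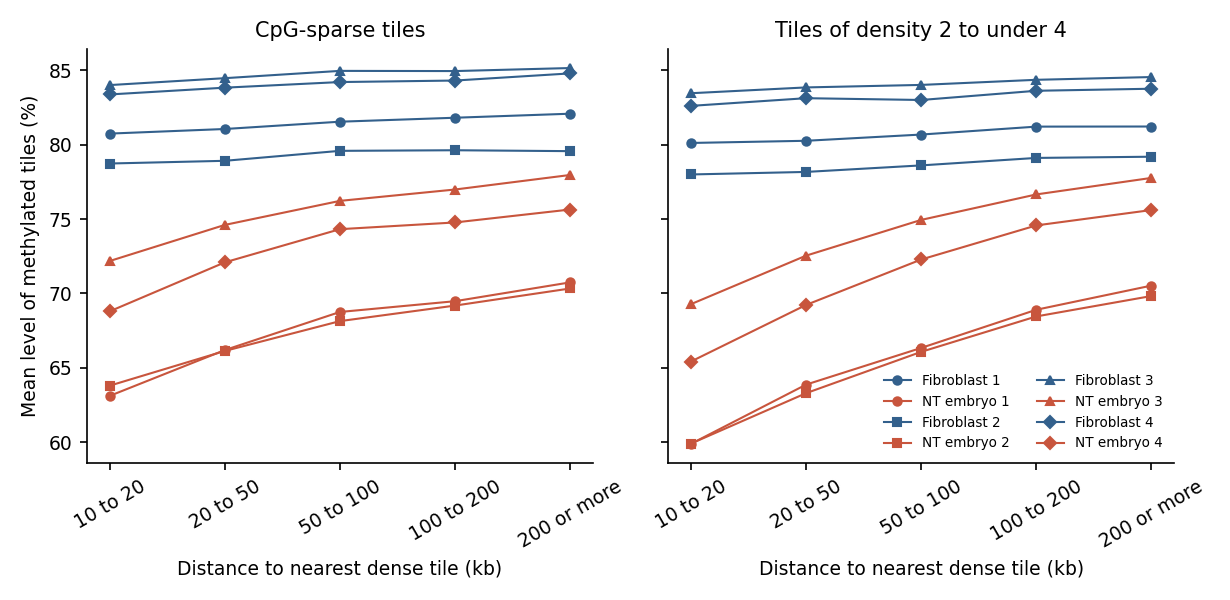
Mean level of methylated tiles (y, percent, axis not starting at 0) by distance to the nearest dense tile (x, kb) for each sample, CpG-sparse tiles on the left and tiles of density 2 to under 4 on the right. Fibroblast lines (blue) are near level in both panels, embryo lines (red) climb with distance, and they start lower in the denser tiles.

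The pattern held chromosome by chromosome. On each of the 19 autosomes every NT embryo sample lay below every fibroblast sample in the mean of methylated CpG-sparse tiles, and on each of them the tiles at 100000 bp or more lost less than those under 20000 bp, by 1.81 points on chromosome 13 to 10.5 points on chromosome 11. Chromosome 19 changed the most, from 82.7% ± 2.24 to 68.0% ± 3.80 or -14.7 points. It holds 582 CpG-sparse tiles at any level, and 6.87% of these were called lower in the tile test described below, where 4.41% of all tiles tested were. Chromosome 11 followed with -14.1 points, made up of -20.5 points under 20000 bp and -9.98 points at 100000 bp or more. Chromosome 15 changed the least, by -10.3 points, close to chromosome 3 at -10.3 points, and the median over autosomes was -11.04 points. All other methylated tiles also changed the most on chromosomes 11 and 19, by -17.2 and -15.0 points. They changed by -12.4 points on chromosome 15 and by -9.30 points on chromosome 3. These are descriptions with no test between chromosomes. Without chromosomes 11 and 19 the gradient with distance was 4.66 points (exact permutation p = 0.0286, n = 4 per stage).

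**Figure D4:**
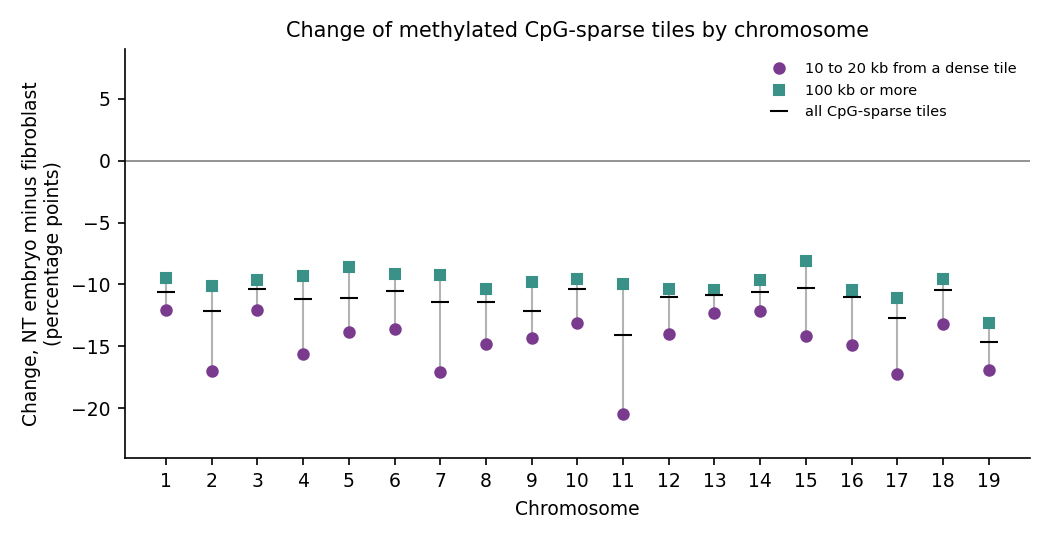
Change of methylated CpG-sparse tiles (y, NT embryo minus fibroblast mean in percentage points) on each autosome (x), for tiles at 10 to 20 kb from a dense tile (circles), at 100 kb or more (squares) and for all CpG-sparse tiles (bars). On all 19 autosomes the square lies above the circle, and the circle of chromosome 11 is the lowest at -20.5 points.

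Against other classes of sequence the CpG-sparse tiles differed by small amounts. Methylated tiles of density 2 to under 4, also more than 10000 bp from a dense tile, changed by -12.4 points and the CpG-sparse tiles by -11.2 points. The CpG-sparse tiles lay above them by 0.790, 0.731, 0.708 and 0.907 points in the fibroblast samples and by 2.01, 2.20, 1.51 and 1.95 points in the NT embryo samples, so that the gap widened by 1.13 points (exact permutation p = 0.0286, n = 4 per stage, 0.0476 adjusted over the 10 tests). Weighted by calls it widened by 0.921 points with an exact permutation p of 0.171, and without fibroblast sample 4 by 1.14 points with 0.0571. Without the tiles of 150 bp spacing it widened by 1.71 points (exact permutation p = 0.0286). The CpG-sparse tiles lost less than these denser tiles in each distance class under 100000 bp, and slightly more beyond it. The changes were -10.1 and -9.92 points at 100000 to 200000 bp, and -9.22 and -8.74 points at 200000 bp or more. This turn of the sign was not tested. Between CpG-sparse tiles and denser methylated tiles no more than 1000 bp away, paired over 10735 CpG-sparse tiles as measured in BDF1-CAST and 10401 in X1, the changes were -9.92 and -9.96 points. That difference of 0.0459 points was within the spread between samples (exact permutation p = 0.743, n = 4), in a comparison chosen after the data had been seen. All other methylated autosomal tiles together changed by -11.7 points, which did not differ from the CpG-sparse tiles beyond the spread (0.415 points, exact permutation p = 0.371, n = 4). Without NT embryo sample 3 that difference was 0.988 points with a p of 0.0286.

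The comparison with sparse tiles near dense sequence depended on the settings in both size and sign. Of 7122 tiles of density under 2 with a dense tile within 10000 bp, the methylated ones changed by -9.47 points. The change of the CpG-sparse tiles far from dense sequence minus this change was -1.77 points (exact permutation p = 0.0286, n = 4 per stage, 0.0476 adjusted over the 10 tests). It was -5.66 points at a minimum of 20 calls, -5.12 points with the distance limit at 5000 bp and -4.18 points weighted by calls (exact permutation p = 0.0286 for each). When methylated was taken as 80% or more, the sign turned, to 1.78 points (exact permutation p = 0.0286). At a minimum of 5 calls it was 0.582 points and with the distance limit at 20000 bp 0.526 points (exact permutation p = 0.0571 for each), matched on starting level it was -0.340 points (p = 0.257), and without NT embryo sample 4 it was -0.511 points (p = 0.114). Depth moved with this comparison: near sparse tiles at 60% or more in the fibroblast mean changed by -20.6 points where the least covered sample held 10 to under 15 calls and by 2.97 points where it held 30 or more, and its part was not tested. For these depth values the tiles were chosen by the same fibroblast samples that the change is measured from. The number of CpGs in a tile made no difference beyond the spread: tiles with 1 covered CpG changed by -11.2 points and tiles with more by -11.7 points (difference 0.506 points, exact permutation p = 0.543, n = 4).

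Tiles on the X chromosome that meet the same density and distance conditions kept more. The 2189 of them, of which the methylated ones went from 83.7% ± 2.48 to 74.8% ± 3.43, changed by -8.86 points. The autosomal CpG-sparse tiles differed from them by -1.53, -1.22, -1.29 and -1.17 points in the fibroblast samples and by -4.20, -4.09, -2.69 and -3.72 points in the NT embryo samples. The widening of this gap by -2.37 points between the stages reached an exact permutation p of 0.0286 (n = 4 per stage) and of 0.0571 without fibroblast sample 1 (-2.40 points) or 4 (-2.18 points). At a minimum of 20 calls it was -1.35 points, and without the tiles of 150 bp spacing, described next, -4.07 points (exact permutation p = 0.0286 for each). This comparison was chosen after the data had been seen.

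A large share of the CpG-sparse tiles has the same spacing. The nearest covered CpG lay exactly 150 bp away in 7624 tiles, or 29.0%, and 149 bp away in 1139, together 33.4%. A distance of 148 bp occurred in 205 tiles, 151 bp in 285, and distances of 130 to 148 bp had a median of 75 tiles each. Smaller peaks stood at 56 bp (775 tiles), 52 bp (615 tiles), 75 bp (516 tiles), 229 bp (499 tiles) and 105 bp (366 tiles). The spacing of 149 or 150 bp was found in 26.4% of the tiles of density 2 to under 4 far from dense tiles, in 10.8% of sparse tiles near dense ones and in 49.2% of the X tiles. Its share among the CpG-sparse tiles rose with distance, from 24.2% at 10000 to 20000 bp to 43.1% at 200000 bp or more. The origin of the spacing was not tested, and the sources used here do not give how reads that match several places were treated.

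Tiles with this spacing were more highly methylated in fibroblasts, and among methylated tiles they lost less. Methylated tiles at 149 or 150 bp went from 84.1, 82.1, 86.3 and 86.0% in the fibroblast samples to 72.7, 71.9, 78.6 and 76.8% in the NT embryo samples, a change of -9.63 points. The other methylated tiles went from 80.9% ± 2.84 to 68.6% ± 4.52, a change of -12.3 points. The difference of 2.67 points had an exact permutation p of 0.0286 (n = 4 per stage), but it was not stable: the exact permutation p was 0.0571 without fibroblast sample 1, 2 or 3 and 0.143 without fibroblast sample 4, and at 20 calls per tile the value was 1.10 points with 0.114. Over all tiles of the class, with no choice by level, the spaced tiles averaged 84.4% in fibroblasts and the others 70.1%. Without that choice the spaced tiles did not lose less, with a change of -9.60 points against -9.43 points in the others. Of the spaced tiles 1.06% were called lower in the tile test described below, and of the others 4.63%. The share of all tiles tested was 4.41%, which takes in tiles with little methylation to lose. Without the spaced tiles the gradient with distance was steeper, at 7.04 points (exact permutation p = 0.0286, n = 4 per stage). The spacing was examined after the data had been seen.

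**Figure D5:**
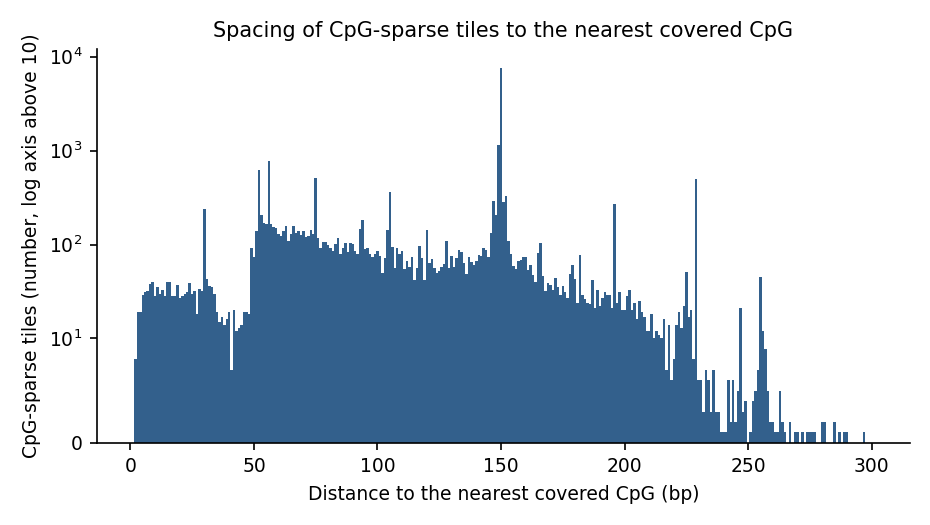
Number of CpG-sparse tiles (y, linear to 10 and logarithmic above) by the distance in bp to the nearest covered CpG (x). The peak at 150 bp holds 7624 tiles, and smaller peaks stand at 52, 56, 75, 105, 149 and 229 bp.

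Tile by tile, few of these losses passed a test. In the quasi-binomial model fitted to all 279699 tiles, with stage and strain as terms and limma-moderated dispersion, calls required an adjusted p below 0.05 and mean levels at least 20 points apart. Of the CpG-sparse tiles 903, or 3.44%, were called lower in NT embryos, where 4.41% of all tiles tested were, and 72, or 0.274%, were called higher, where 0.173% of all tiles were. The 975 calls in all make 3.71% against 4.59% of all tiles. All tiles take in those with little methylation to lose, and the other tiles held more calls. Among tiles at 60% or more in the fibroblast mean, CpG-sparse tiles were called lower less often than tiles of density 2 to under 4. Where the least covered sample held 10 to under 15 calls, the shares were 5.99 against 8.997%, and at 30 or more 4.95 against 10.01%. In the bands between, split at 20 calls, they were 3.29 against 5.14% and 2.22 against 4.69%. Near sparse tiles were called more often under 30 calls and less often, at 2.47%, from there on. This was not tested. Of the calls 92.6% were lower, against 96.2% of the calls over all tiles. Every NT embryo sample lay below every fibroblast sample in 4188 CpG-sparse tiles, or 15.9%, where 11.9% of all tiles tested did, and above in 236, or 0.898%, where 0.874% did.

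The mean was lower in embryos in 83.1% of the CpG-sparse tiles, against 72.1% of all tiles, and the median change was -8.99 points (quartiles -14.9 and -3.20), against -2.27 points over all tiles. Many small shifts thus stood beside few large ones. The values over all tiles take in every starting level, also tiles with little methylation to lose. Among methylated tiles the mean change was -11.2 points in the CpG-sparse tiles and -11.7 points in all other autosomal tiles. Tiles called lower had a median of 85.7% in fibroblasts and 41.9% in embryos, with a median change of -38.3 points. Falls of 60 points or more numbered 84, and 28 tiles went from 80% or more to under 20%. The share called lower dropped with distance to a dense tile, from 6.52% at 10000 to 20000 bp over 4.37, 2.90 and 2.28% to 1.46% at 200000 bp or more. It also dropped in tiles of density 2 to under 4, from 10.3% over 7.41, 5.11 and 3.18% to 1.96% in the same distance classes.

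The number of calls depended on which samples were in the model, most of all on the fibroblast samples. It was 0 without fibroblast sample 1 (5299 tiles at an unadjusted p under 0.05, smallest adjusted p 0.0666), 75 without the second, 181 without the third and 191 without the fourth. Without NT embryo sample 1 it was 518, and without NT embryo sample 2 it was 522. It rose to 1279 without NT embryo sample 3 and to 1297 without NT embryo sample 4. Without the resequenced fibroblast library 1a it was 663. A minimum of 20 calls per tile left 12021 tiles with 313 called, a minimum of 5 gave 1821 of 38240, and 601 were called by limma on arcsine square root levels.

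The 8 largest called falls were at tiles of a single CpG, and 5 of them left at most 23.1% in any embryo sample. On chromosome 2, tile 153411200 to 153411299, 10500 bp from a dense tile, was at 97.5, 94.9, 96.2 and 94.2% in the fibroblast samples and at 7.69, 14.9, 0 and 0% in the NT embryo samples, with 15 to 162 calls (adjusted p = 0.0039 in the quasi-binomial model). Both BDF1-CAST embryo samples kept some methylated calls and both X1 samples had none. On the same chromosome tile 30482800 to 30482899 was at 92.2, 100, 94.4 and 81.8% in fibroblasts and at 0, 22.5, 0 and 0% in embryos (adjusted p = 0.00796 in the same model, 11 to 102 calls). On chromosome 17, tile 47900900 to 47900999 was at 88.3, 73.2, 88.1 and 92.3% in fibroblasts and at 5, 10.8, 0 and 0% in embryos (adjusted p = 0.00663, 10 to 94 calls). In these 3 tiles the stages were far apart in every sample.

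The next 2 falls were as even across samples. On chromosome 15, tile 98872800 to 98872899 fell from 88.0% ± 4.65 to 8.96% ± 10.2 (adjusted p = 0.00763). Tile 12532700 to 12532799 on chromosome 13 fell from 86.9% ± 7.998 to 8.27% ± 5.71 (SD, n = 4 per stage, adjusted p = 0.00504 in the quasi-binomial model). The other 3 had an embryo sample that stayed intermediate. Tile 12483900 to 12483999 on chromosome 11 was at 0, 23.8, 0 and 41.4% in the embryo samples and tile 119313900 to 119313999 on that chromosome at 42.9, 11.1, 4 and 0%, from fibroblast means of 93.2 and 91.3%. On chromosome 17, tile 56737500 to 56737599 was at 0, 0, 55 and 0% in embryos from 89.5% ± 4.14 in fibroblasts. In 15 of the embryo values of the 8 tiles no call was methylated, in 10 to 40 calls, which allows levels of up to 7.50 to 30%. Such limits cover counting error only, since reads without molecular identifiers are not independent molecules. None of the 8 falls was called without fibroblast sample 1 (adjusted p 0.0666 to 0.144), 5 were called without sample 2 and 6 without sample 3 or 4 or NT embryo sample 1 or 2.

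The 6 largest called rises were also single CpGs, and they were less even. On chromosome 17, tile 30873200 to 30873299, 159700 bp from a dense tile, was at 21.3, 12, 21.4 and 18.2% in the fibroblast samples and at 58.3, 62.5, 100 and 100% in the NT embryo samples (adjusted p = 0.0266 in the quasi-binomial model, 10 to 108 calls). Here X1 embryos had no unmethylated call, in 10 and 13 calls, and BDF1-CAST embryos were intermediate. The same order held on chromosome 10 in tile 59028800 to 59028899, at 50, 39.5, 100 and 100% in the embryos from 17.4% ± 12.2 in fibroblasts. On chromosome 8, tile 97283300 to 97283399 was at 38.8, 29.8, 22.2 and 10% in fibroblasts and at 96.3, 86.4, 72.5 and 61.4% in embryos (adjusted p = 0.00814), with BDF1-CAST above X1 in both stages. Tile 5761500 to 5761599 on chromosome 15 rose from 21.8% ± 13.4 to 82.2% ± 17.4, tile 111227000 to 111227099 on chromosome 2 from 18.2% ± 14.6 to 74.0% ± 19.1, and tile 87788500 to 87788599 on chromosome 2 from 27.5% ± 11.03 to 81.3% ± 21.8 (adjusted p of 0.0247, 0.0441 and 0.0328 in the same model, SD with n = 4 per stage). In 7 of the embryo values of the 6 tiles every call was methylated, in 10 to 57 calls, which allows unmethylated shares of up to 5.26 to 30%. None of the 6 rises was called without fibroblast sample 1 (adjusted p 0.0707 to 0.177), 1 was called without fibroblast sample 2, 3 or 4 or NT embryo sample 1, and by limma on arcsine square root levels 2 were called.

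A called loss had another called loss nearby more often than the remaining CpG-sparse tiles did. Of 447 called-lower tiles with another tested tile of any density within 1000 bp, 115 or 25.7% had a called-lower one there, against 606 of 17532 or 3.46% of the CpG-sparse tiles not called lower. Over all tiles tested, 4.41% were called lower. The called-lower tiles lay nearer to dense tiles, at a median of 37900 bp against 66000 bp over all CpG-sparse tiles. The part of distance in this was not tested. Over pairs of CpG-sparse tiles 100 to 300 bp apart, the fibroblast levels correlated at r = 0.727 and the changes at r = 0.369 (2758 pairs). At 300 to 1000 bp the values were 0.628 and 0.354 (320 pairs), at 1000 to 10000 bp 0.227 and 0.104 (2580 pairs), and at 10000 to 100000 bp 0.182 and 0.0665 (12210 pairs). These correlations run across tile pairs, which share libraries and, when close, reads, and so describe the tiles with no test.

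The deepest tiles show the change at high call numbers, although reads without molecular identifiers are not independent molecules. The 4 CpG-sparse tiles with the most calls in their least covered sample held 199 to 3655 calls in each sample. Tile 59803800 to 59803899 on chromosome 19 was at 83.6, 81.2, 85.5 and 84.4% in fibroblasts and at 71.8, 71.4, 76.2 and 78.3% in NT embryos (adjusted p = 0.00504 in the quasi-binomial model). Tile 49149000 to 49149099 of the same chromosome went from 84.0% ± 2.70 to 74.2% ± 4.62 (SD, n = 4, adjusted p = 0.00549). Both have a nearest covered CpG at 150 bp, and both held 2861 to 3655 calls in each BDF1-CAST sample but 199 to 366 in each X1 sample. Their calls were close in each sample, such as 3655 and 3608 in fibroblast sample 1 and 205 and 199 in fibroblast sample 4. Whether both tiles share sequence, and so are not separate loci, was not tested. Tile 19922600 to 19922699 on chromosome 8 changed by -13.0 points (adjusted p = 0.0118), and tile 15180500 to 15180599 on chromosome 5 by -13.6 points (adjusted p = 0.0764). These changes were smaller than the 20 points a call requires.

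Levels of the CpG-sparse tiles were higher in X1 in both stages, by 5.53 points in the mean (exact permutation of strain labels within stages, p = 0.0556, the smallest that 36 assignments allow). From fibroblast to embryo BDF1-CAST changed by -11.2 points, X1 by -7.80 points. That difference of 3.38 points was within what exchanging the strain labels gives (exact permutation p = 0.444, n = 2 per stage and strain). Strain cannot be told apart from library differences such as the number of CpGs covered, which was 1746590 to 1886972 in BDF1-CAST libraries and 1376884 to 1596888 in X1 libraries.

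A single CpG-sparse tile was called between the strains, where 0.0179% of all tiles tested were. Tile 51648000 to 51648099 on chromosome 2, with 2 CpGs, was at 90.4, 89.9, 85.2 and 94.9% in the BDF1-CAST samples and at 45.6, 39.0, 46.3 and 50% in the X1 samples, fibroblasts first (adjusted p = 0.0281 in the quasi-binomial model, 39 to 135 calls). High levels in BDF1-CAST and intermediate levels in X1 were seen in both stages. The call was lost without any 1 sample (adjusted p 0.0885 to 0.296) and with limma (0.117), while 3046 tiles were under 0.05 before adjustment. Of the tiles not called, those with the smallest p were tile 86636100 to 86636199 on chromosome 3, at 13.8% ± 5.05 in BDF1-CAST and 63.1% ± 9.43 in X1 (adjusted p = 0.0701), and tile 59007200 to 59007299 on chromosome 14, at 53.1% ± 9.88 and 93.3% ± 5.25 (adjusted p = 0.0729, SD with n = 4 per strain). Whether sequence variants of the strains alter these CpGs was not tested. No CpG-sparse tile was called for a change that differs between the strains, as was none of all tiles tested (0%). The quasi-binomial model gave 2084 tiles at an unadjusted p under 0.05 and a smallest adjusted p of 0.253, and limma called 0 tiles, with 2496 under 0.05 before adjustment. With 2 samples per stage and strain, a difference between the strains is not excluded by this 0.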

How the data were processed

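For each of 9 libraries the authors deposited a count of calls seen and a count of methylated calls per CpG, on build mm9 per the submitters' processing notes, with aligner and caller not given in the sources used here. CpG density, the authors' deposited value per tile, served only to choose tiles. The 26 methylation columns of the tile table were not used. Counts were summed per 100 bp tile, and fibroblast libraries 1 and 1a, a resequencing per the deposited description of the files, were summed to 1 sample. Tiles with at least 10 calls in each of 8 samples were kept. Sample means weight tiles equally and were compared by two-sided exact permutation tests. The quasi-binomial tile model used limma 3.58.1 (squeezeVar, dispersion at least 1) in R 4.3.3 with Benjamini-Hochberg adjustment over all 279699 tiles, and was tested on simulated data. Named tiles are the 8 largest called falls and the 6 largest called rises, the called strain tile with the next ones by p, the 4 deepest, and the chromosomes with the largest and smallest change. Replicate numbers were not taken as pairs: same-numbered samples deviated together at r = 0.00118 to 0.120. Alternatives in coverage, weighting, distance, level, model, pairing and left-out samples are given in the closing section. The members, lists and tests were chosen with earlier results of these data known. Other steps used Python 3.11.15, numpy 2.4.6, pandas 2.3.3 and scipy 1.17.1.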

Additional observations from a re-analysis of the deposited data

Results flagged for a closer look

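The values below were picked out after they had been seen, and no explanation was tested. For tiles placed at 20 to 40% by the fibroblasts of the other strain, both BDF1-CAST embryo samples lay below the mean of their strain's fibroblasts and both X1 embryo samples above theirs, although samples of the stages overlapped within each strain. BDF1-CAST changed by -0.959 points and X1 by 4.59 points, and the difference of 5.54 points was not tested. The change of methylated CpG-sparse tiles minus that of all other autosomal tiles was 1.31 points for BDF1-CAST, against -0.479 points for X1, and their difference of -1.79 points was not tested either.

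Of 80 groups of 4 values examined for a sample far from the other 3, 4 had one, the number that a chance of 1 in 20 gives. NT embryo sample 2 stood at 22.5% in tile 30482800 of chromosome 2, where the other embryo samples had no methylated call. Fibroblast sample 3 stood at 75% in tile 12532700 of chromosome 13, below 90.4 to 91.9% in the other fibroblasts. NT embryo sample 3 stood at 55% in tile 56737500 of chromosome 17, where the other embryo samples had none. In fibroblasts, the gradient with distance of the CpG-sparse tiles minus that of tiles of density 2 to under 4 was -0.275 points for sample 2, and 0.0471 to 0.0720 points for the rest.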

How the results depend on the processing

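The mean change, the change of methylated tiles and the gradient with distance kept their direction in every alternative run. Without single samples the mean change was -11.4 to -8.50 points, the share at 80% or more changed by -30.3 to -22.8 points, methylated tiles by -13.2 to -10.4, and the contrast with denser far tiles was 0.917 to 1.45. The contrast with all other tiles was 0.165 to 1.09, that with near sparse tiles -1.78 to -0.511, and that of 1 CpG against more -0.342 to 0.864, negative without NT embryo sample 1 or 2. The class at 20 to 40% ran from -2.41 to 5.01 points and the contrast with denser tiles within 1000 bp from -0.0396 to 0.255. Tile calls ran from 0 to 1297 and strain calls were 0 throughout.

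With a replicate block (same-numbered samples paired, exact sign flips, 16 assignments, too few to pass) the values were unchanged and none passed: -9.49, -27.4, -11.2, -1.77, 1.13 and 5.00 points. The tile model with the block called 0 tiles (5923 at an unadjusted p under 0.05, smallest adjusted p 0.123). Samples did not all correlate best with their own number.

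The contrast with all other tiles turned to -0.0693 points at 20 calls, -0.454 weighted by calls and -0.176 without the 150 bp spacing. That of 1 CpG against more turned to -0.525 at 5 calls, -0.139 at 20000 bp, -0.679 without the 150 bp spacing and -0.464 without tiles that have a covered CpG within 50 bp. That with denser tiles within 1000 bp was -0.0582 at 20 calls, -0.0102 without library 1a, -0.0365 thinned to 10 calls and -0.0667 without tiles that have a covered CpG within 50 bp. The contrast with near sparse tiles was 0.582 at 5 calls, 0.526 at 20000 bp, 1.78 with methylated from 80% and -0.340 matched on level, and that with denser far tiles 0.921 weighted by calls. Tile calls were 1821 at 5 calls, 313 at 20 calls and 601 with limma, and strain calls 0 with limma (3883 at an unadjusted p under 0.05). The cause was not tested. The 150 bp, X and 1000 bp contrasts were added after the data had been seen.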

Other observations

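Some CpG-sparse tiles held 1 state in all samples. Of 8342 tiles at 80% or more in all 4 fibroblast samples, 502 were at 80% or more in all 8 samples, with sample means of 88.6 to 92.1%. Of these, 19.1% had a nearest covered CpG at 149 or 150 bp, against 33.4% of all CpG-sparse tiles. Of 579 tiles under 20% in all 4 fibroblast samples, 296 were under 20% in all 8, with sample means of 1.95 to 4.49%. These lay nearer to dense tiles, at a median of 38600 bp against 66000 bp, and 0.676% of them had the 149 or 150 bp spacing. In 14 tiles no methylated call was seen in any sample, and 1019 tiles were at 20 to 80% in all 8. The tiles were chosen by their levels, so these values are a description with no test.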
